A study of Mus musculus with 12 samples.

Results

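The 9 genes described here are 5 ligands of the epidermal growth factor (EGF) family, Hbegf, Ereg, Tgfa, Btc and Egf, the receptors Egfr, Erbb2 and Erbb3, and Errfi1, an inhibitor of the receptors. They were taken by a list of symbols out of 35896 genes with a matched transcript, and that list was drawn up with earlier results of these data known. Levels were read in 12 whole uteri of wild-type female Swiss Webster mice aged 8 to 12 weeks, 3 per stage of the estrous cycle, whose 4 stages are proestrus, estrus, metestrus and diestrus. All animals shared stock, genotype and sex, and no treatment was named in the labels. Swiss Webster is an outbred stock, and the labels do not say how a stage was assigned. Polyadenylated RNA was profiled by 3' TagSeq, which sequences a fragment close to the polyadenylated end, and levels are given as CPM (reads of a gene scaled to a common library total). Samples are named by stage and by the number in their title.

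EGF-family ligands are made as membrane-anchored precursors, and metalloproteases of the ADAM family release their soluble forms. EGFR binds HB-EGF, epiregulin, TGF-alpha, betacellulin and EGF. ERBB2 has no known soluble ligand and works as a partner of the other receptors, whereas ERBB3 binds neuregulins but has little kinase activity of its own. Activated pairs of receptors signal through the RAS-ERK and PI3K-AKT cascades. ERRFI1 (MIG6) binds the EGFR kinase domain and blocks it. In the mouse uterus, HB-EGF is known for its part in embryo attachment, and Errfi1 for its response to progesterone.

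Each library held between 1652841 and 2200563 estimated counts, and the limit of 3 counts that a count of 0 allows stood at 1.37 to 1.83 CPM. This limit covers counting error only. All 6 uterus markers on the list (such as Esr1, Pgr and Hoxa10) were detected in all 12 libraries, whereas none of the 8 markers of stratified squamous epithelium was, and their summed level stayed at or under 4.56 CPM. Markers of ciliated oviduct summed to 52.9 to 299 CPM and of ovary to 13.5 to 29.7 CPM. The oviduct sum was carried by Tppp3 and Ovgp1 (2414 and 502 counts over all libraries), while Foxj1, Dnah5 and Tekt1 gave 9, 18 and 9. Of the ovary markers, Star gave 290 counts and Lhcgr 86, while Inha, Cyp11a1, Hsd3b1 and Amh gave 38, 18, 10 and 2. Markers of adipocytes summed to 0.989 to 16.7 CPM and of neutrophils to 5.37 to 61.2 CPM. The metestrus libraries spread widely, with stromal markers summing to between 5070 and 10900 CPM. In whole uteri, fewer cells of a type and less RNA per cell cannot be told apart. The p-values set the differences between stages against the spread between these uteri within a stage.

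Among the 9 genes, 5 had enough counts to be tested (Hbegf, Egfr, Erbb2, Erbb3 and Errfi1) and 4 did not (Ereg, Tgfa, Btc and Egf). A gene is said to have changed where its adjusted p was under 0.05, in edgeR's quasi-likelihood test with Benjamini-Hochberg adjustment over the 12052 genes tested. All 5 tested members changed over the 4 stages, where 23.2% of the genes tested did. In estrus against proestrus 2 members changed (17.1% of the genes tested), both higher (9.67% higher, 7.46% lower). In diestrus against estrus 3 changed (22.8%), all lower (9.72% higher, 13% lower). In metestrus against estrus 1 changed (7.56%), and it was lower (2.83% higher, 4.73% lower). In proestrus against diestrus 1 changed (8.53%), and it was lower (4.62% higher, 3.91% lower). In metestrus against proestrus 1 changed (4.31%), and it was higher (2.49% higher, 1.82% lower). In diestrus against metestrus the count was 0 in edgeR, beside 0.224% of the genes tested (0.133% higher, 0.0913% lower). DESeq2 also gave 0 there, and 2 members (Egfr and Errfi1) had an unadjusted p under 0.05.

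**Figure D1:**
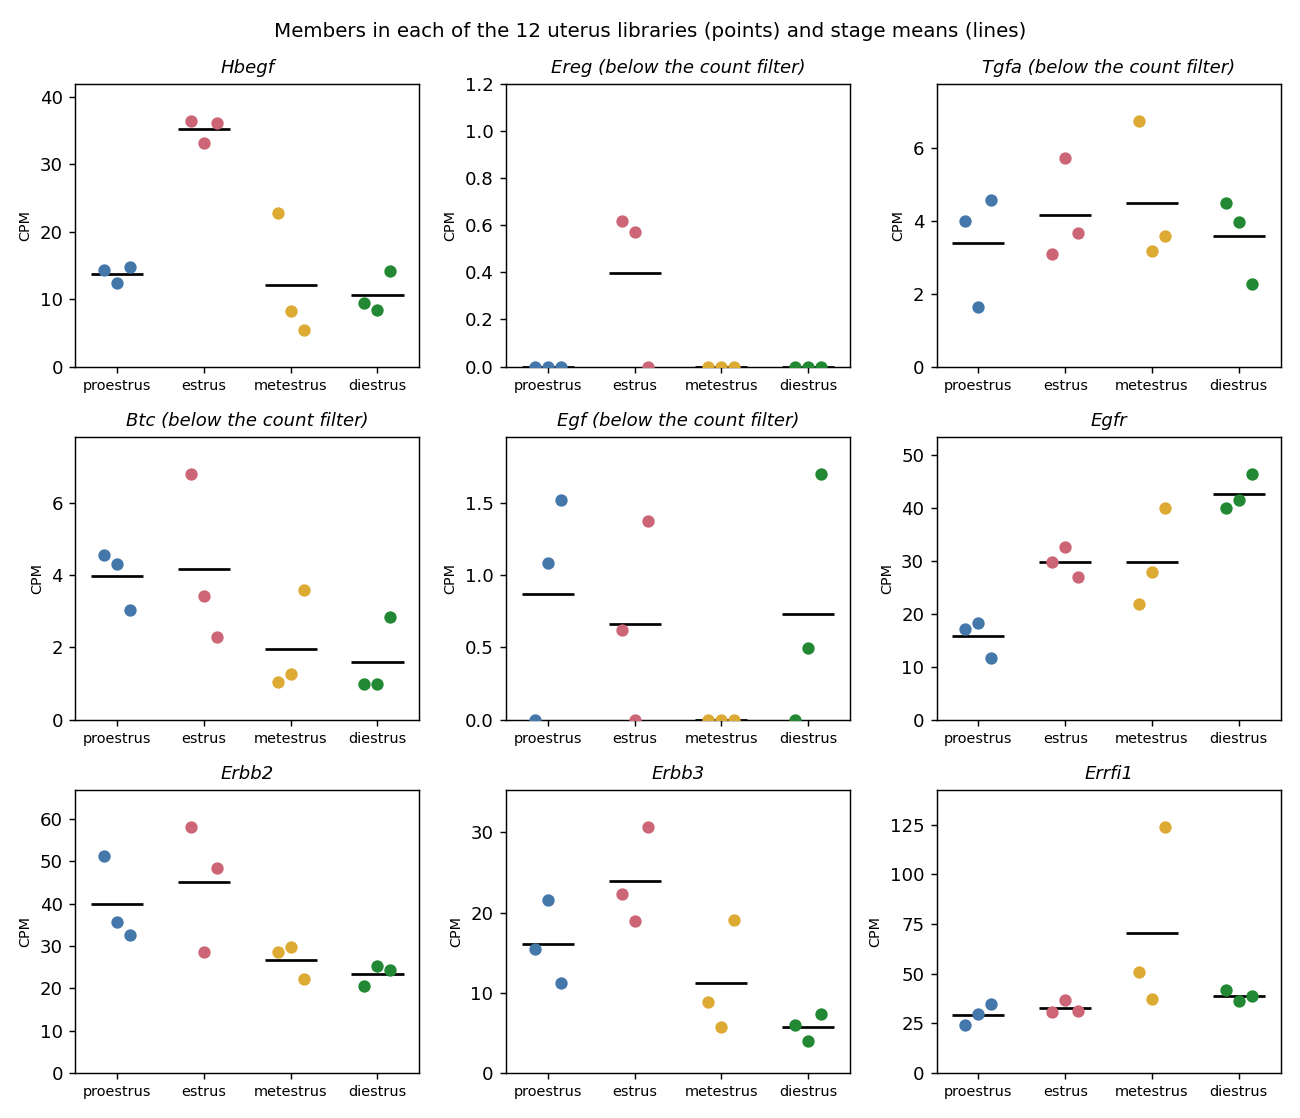
CPM of the members in each library, by stage, with 1 point per uterus and a bar at the stage mean. The 3 estrus points of Hbegf, 33.2 to 36.5 CPM, sit above those of all other libraries, and those of Egfr are lowest in proestrus and highest in diestrus.

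Hbegf (ENSMUSG00000024486), which encodes the heparin-binding ligand of EGFR, was the only ligand of the 5 with enough counts to be tested, and its transcript was highest in estrus. The 3 estrus uteri measured 36.5, 33.2 and 36.2 CPM (replicates 3, 4 and 5), from 59, 58 and 79 counts. The 3 proestrus uteri measured 14.3, 12.4 and 14.7 CPM. Diestrus gave 9.47, 8.4 and 14.1 CPM. In metestrus the values were 22.8, 8.21 and 5.37 CPM, so that replicate 5 lay nearest to estrus. No library of another stage reached the estrus values. The stage means were 13.8 ± 1.23 CPM in proestrus, 35.3 ± 1.83 in estrus, 12.1 ± 9.37 in metestrus and, in diestrus, 10.7 ± 3.06 (n = 3 each, SD), and the stages differed with an adjusted p of 0.0087 in edgeR's F test.

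From proestrus to estrus Hbegf rose 2.55-fold, a log2 difference of 1.35 ± 0.36 (SE, adjusted p = 0.0222). From estrus to metestrus its log2 level fell by 1.5 ± 0.37 (adjusted p = 0.027), and diestrus lay below estrus by a log2 difference of -1.73 ± 0.37 (adjusted p = 0.00499). Proestrus, metestrus and diestrus were not separated from each other: metestrus against proestrus gave -0.15 ± 0.4 (adjusted p = 0.878) and diestrus against metestrus -0.23 ± 0.41 (adjusted p = 0.885). The difference between diestrus and estrus held without any 1 library, with adjusted p up to 0.027. The rise from proestrus to estrus did not pass without any 1 of the 6 proestrus and estrus libraries (adjusted p = 0.058 without estrus replicate 4 to 0.0715 without proestrus replicate 2). The fall to metestrus did not pass without estrus replicate 3, 4 or 5 (0.071, 0.0706 and 0.0879) or without metestrus replicate 6 or 7 (0.0973 and 0.0541). Without metestrus replicate 5 it was larger, at -2.38. Macrophage markers also stood higher in estrus, with a summed level of 558 to 641 CPM against 218 to 274 CPM in proestrus. All 7 of 7 genes were higher. The sum was 326 to 494 CPM in metestrus and 310 to 407 CPM in diestrus, still above proestrus, whereas the Hbegf means of these stages were not. Against estrus, 2 of the 7 genes were lower in metestrus and 3 in diestrus. The part of macrophages in the Hbegf differences was not tested.

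The other ligands were near or under the detection limit. Ereg, which encodes epiregulin (ENSMUSG00000029377, chromosome 5, 91074622 to 91093646 in GRCm38), gave 2 counts in all, 1 in estrus replicate 3 and 1 in estrus replicate 4. Egf (ENSMUSG00000028017, chromosome 3, 129677565 to 129755316), the founding ligand of the family, gave 13 counts spread over 6 libraries, at most 3 in a library and none in metestrus. At these counts no stage difference could be read for either gene.

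Tgfa (ENSMUSG00000029999, chromosome 6, 86195223 to 86275719), which encodes TGF-alpha, was detected in all 12 libraries but at 3 to 13 counts each. Its stage means were 3.39 ± 1.56 CPM in proestrus, 4.16 ± 1.38 in estrus, 4.49 ± 1.96 in metestrus and, in diestrus, 3.57 ± 1.16 (n = 3 each, SD), and the ranges of the stages overlapped. Btc, which encodes betacellulin (ENSMUSG00000082361, chromosome 5, 91357261 to 91402994), held 63 counts in all. Its means were 3.97 ± 0.814 CPM in proestrus, 4.18 ± 2.35 in estrus, 1.96 ± 1.41 in metestrus and 1.61 ± 1.06 in diestrus. In a fit without a filter on low counts, the F test gave Tgfa an adjusted p of 0.943, Btc 0.438, Egf 0.562 and Ereg 0.644. Diestrus against estrus gave Btc a log2 difference of -1.3 ± 0.72 in that fit (adjusted p = 0.284). A p above the threshold does not show that these ligands were constant.

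Egfr (ENSMUSG00000020122, chromosome 11, 16752203 to 16918158, forward strand), the receptor of all 5 ligands, was lowest in proestrus and highest in diestrus. The proestrus uteri measured 17.1, 18.3 and 11.7 CPM and the estrus uteri 29.7, 32.6 and 27 CPM. In metestrus they measured 21.8, 27.8 and 39.9 CPM, and in diestrus 39.9, 41.5 and 46.4 CPM. Every proestrus value lay below every value of the other stages, and the metestrus values spanned the estrus values and reached the lowest diestrus value. Means were 15.7 ± 3.54, 29.8 ± 2.79, 29.8 ± 9.25 and 42.6 ± 3.4 CPM in cycle order (SD, n = 3 each), with an adjusted p of 0.00446 over the stages in edgeR.

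Egfr was 2.71-fold lower in proestrus than in diestrus, a log2 difference of -1.44 ± 0.23 (adjusted p = 0.00209), and this held without any 1 library, with adjusted p up to 0.012. From proestrus to estrus it rose by 0.92 ± 0.24 on the log2 scale (adjusted p = 0.019), but not past the threshold without proestrus replicate 3 (0.0867) or estrus replicate 4 (0.0741). Metestrus also stood above proestrus by 0.92 ± 0.24 (adjusted p = 0.048), a difference that did not pass in 10 of the 12 fits that left out a library (up to 0.172, without proestrus replicate 3) and passed without metestrus replicate 5 or 6. Metestrus against estrus gave 0.0 ± 0.23 (adjusted p = 0.999), diestrus against metestrus 0.52 ± 0.22 (0.39) and diestrus against estrus 0.52 ± 0.22 (0.104), the last with no overlap between the stages. The difference between diestrus and estrus passed without metestrus replicate 7 (0.0444), without all metestrus uteri (0.0377) and in a fit on the 6 estrus and diestrus uteri (0.0299), higher in diestrus each time. Stromal markers summed to 9320 to 9450 CPM in proestrus and 6720 to 9010 CPM in diestrus, a sum carried by Col1a1, Col3a1 and Dcn. Of the 7, 1 (Pdgfra, named after its values were seen) was lower in proestrus than in diestrus, at 46.2 ± 8.07 against 114 ± 5.04 CPM (SD, n = 3 each). The means of Pdgfrb, Vim and Col3a1 were also lower in proestrus and those of Col1a1, Dcn and Lum higher, without passing the test. The part of stromal cells in the Egfr difference was not tested.

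Erbb2 (ENSMUSG00000062312, chromosome 11, 98412470 to 98437716, forward strand), the partner receptor, had its lowest mean in diestrus. Proestrus gave 51.3, 35.6 and 32.5 CPM and estrus 58.1, 28.6 and 48.5 CPM. Metestrus gave 28.5, 29.7 and 22.1 CPM and diestrus 20.4, 25.2 and 24.3 CPM. All 3 diestrus values lay below every proestrus and estrus value, while estrus replicate 4 lay within the metestrus range. Means were 39.8 ± 10.1, 45.1 ± 15.1, 26.8 ± 4.1 and 23.3 ± 2.54 CPM in cycle order (SD, n = 3 each), with an adjusted p of 0.0353 over the stages. That test did not pass without proestrus replicate 2 (0.0521), estrus replicate 3 (0.0869), estrus replicate 5 (0.0952) or diestrus replicate 3, 4 or 5 (0.09, 0.0684 and 0.0687).

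Diestrus lay 1.93-fold below estrus for Erbb2, a log2 difference of -0.95 ± 0.26 (adjusted p = 0.0167), which did not pass without estrus replicate 3 (0.0761), estrus replicate 5 (0.0617) or diestrus replicate 3 (0.068). No neighbours in the order of the means, estrus, proestrus, metestrus and diestrus, were separated: estrus against proestrus gave 0.18 ± 0.25 (adjusted p = 0.658), metestrus against proestrus -0.57 ± 0.26 (0.222) and diestrus against metestrus -0.2 ± 0.27 (0.836). Proestrus against diestrus gave 0.77 ± 0.26 (0.0887). Metestrus against estrus, a step of the cycle, gave -0.75 (0.091) and passed in 1 of 18 alternative fits (0.039, without estrus replicate 4). Mien1 overlaps Erbb2 on the opposite strand. In the GENCODE transcripts, however, Erbb2 shared 0.0% of its 5206 stretches of 31 bases with other genes, on either strand. Whether the counting used strand, and which transcript set it used, is not given in the sources used here.

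Erbb3 (ENSMUSG00000018166, chromosome 10, 128567523 to 128589652, reverse strand), the neuregulin receptor, had the largest fold between stage means of the 5 tested members. Proestrus measured 15.4, 21.6 and 11.2 CPM and estrus 22.3, 18.9 and 30.7 CPM. Metestrus measured 8.82, 5.68 and 19.1 CPM and diestrus 5.98, 3.95 and 7.36 CPM, the last from 12, 8 and 13 counts. No diestrus value reached the proestrus or estrus range, and metestrus replicate 7 was within both. Means were 16.0 ± 5.23, 23.9 ± 6.08, 11.2 ± 7.01 and 5.76 ± 1.71 CPM in cycle order (SD, n = 3 each). Over the stages the adjusted p was 0.0136, and 0.0564 without estrus replicate 5.

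Erbb3 was 4.18-fold lower in diestrus than in estrus, a log2 difference of -2.06 ± 0.42 (adjusted p = 0.00337), and passed without any 1 library (up to 0.0201). Proestrus against diestrus gave 1.47 ± 0.43 with an adjusted p of 0.05, just above the threshold before rounding. It passed in 9 of 18 alternative fits, among them DESeq2 (0.0258) and the fit without metestrus replicate 7 (0.0161). In the other 9 it did not, with adjusted p up to 0.198. The steps between neighbouring means were not separated: estrus against proestrus gave 0.59 ± 0.37 (0.307), metestrus against proestrus -0.51 ± 0.4 (0.504) and diestrus against metestrus -0.96 ± 0.45 (0.449). Metestrus against estrus, a step of the cycle, gave -1.1 (0.0994) and passed in 1 of 17 alternative fits (0.0202, without metestrus replicate 7).

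Between estrus and diestrus, most epithelial markers moved in the same direction as Erbb2 and Erbb3. The 9 genes summed to 1480 to 1850 CPM in estrus and 686 to 833 CPM in diestrus, and 7 of the 9 were lower in diestrus. The means of Cldn3 and Foxa2 were higher in diestrus, without passing the test. In proestrus the 9 genes summed to 1680 to 2250 CPM. Against diestrus 6 were higher in proestrus and 3 (Cldn3, Cldn4 and Foxa2, named after their values were seen) lower. From proestrus to estrus the sum did not rise, but 2 of the 9 genes (Cldn3 and Cldn4) were higher and 0 lower. The median log2 difference of the 9 was 0.24. The means of Erbb2 and Erbb3 also rose over this step, without passing the test. None of the 9 was at 0 in all libraries. Their part in the receptor differences was not tested.

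**Figure D2:**
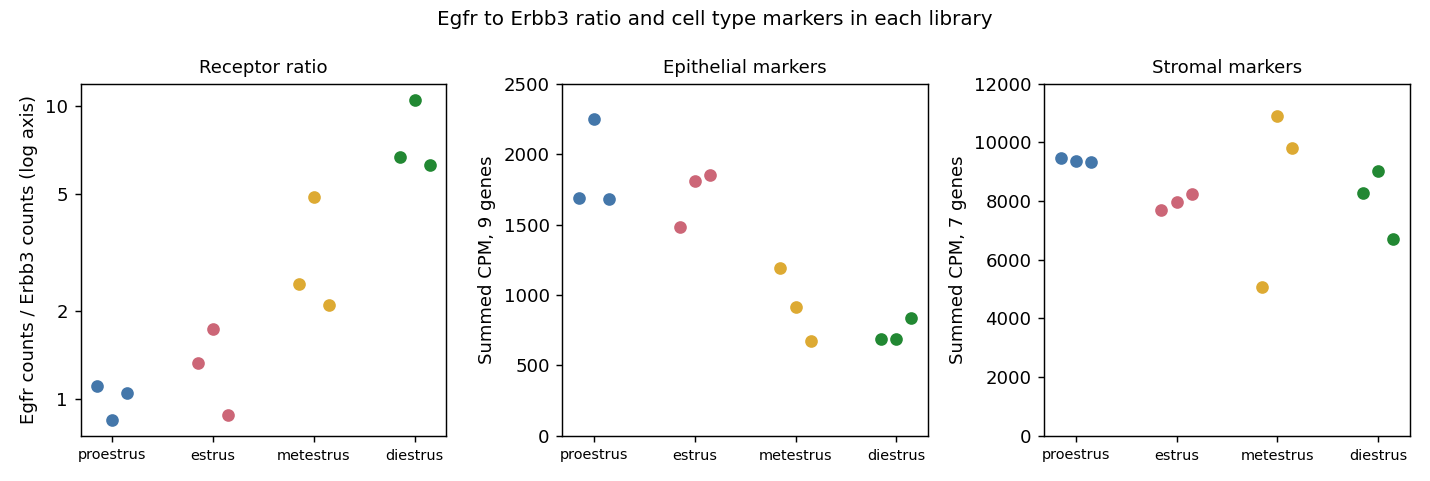
Ratio of Egfr to Erbb3 counts (left, log axis) and summed CPM of 9 epithelial markers (middle) and 7 stromal markers (right), by stage, with 1 point per uterus. The diestrus uteri lie at ratios of 6.31 to 10.5 and the proestrus and estrus uteri at 0.85 to 1.73, and epithelial markers are at 686 to 833 CPM in diestrus against 1480 to 1850 CPM in estrus.

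Because Egfr was highest where Erbb3 was lowest, the ratio of their counts, in which library scaling cancels, was taken for each uterus. It was 1.11, 0.85 and 1.05 in proestrus and 1.33, 1.73 and 0.881 in estrus. In metestrus it was 2.47, 4.89 and 2.09, and in diestrus 6.67, 10.5 and 6.31. All 3 metestrus values lay above all 6 of proestrus and estrus and below all 3 of diestrus. The ratio of Egfr to Erbb2 counts was not separated in this way. There, estrus replicate 4 (1.14) lay above metestrus replicates 5 and 6 (0.764 and 0.936). Metestrus replicate 7 (1.81) lay above diestrus replicate 4 (1.65). Both ratios were formed after the patterns were seen and are descriptions without a test. Their size does not compare the receptors, since tags of different genes need not be counted with the same efficiency.

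Errfi1 (ENSMUSG00000028967, chromosome 4, 150853919 to 150868892, forward strand), the feedback inhibitor, had its highest mean in metestrus, set largely by 1 uterus. Metestrus replicates 5, 6 and 7 measured 50.8, 37.2 and 124 CPM. Proestrus measured 24, 29.6 and 34.5 CPM, estrus 30.9, 36.6 and 31.1 CPM, and diestrus 41.9, 36.1 and 38.5 CPM. All 3 metestrus values lay above all proestrus and estrus values, while metestrus replicate 6 lay within the diestrus range. Means were 29.4 ± 5.28, 32.9 ± 3.22, 70.7 ± 46.7 and 38.8 ± 2.91 CPM in cycle order (SD, n = 3 each).

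Over the stages the adjusted p of Errfi1 was 0.0379. It was 0.112 without metestrus replicate 7, was above 0.05 in 10 of the 12 fits that left out a library, and was 0.173 with the metestrus uteri left out altogether. No pair of stages passed: metestrus against proestrus gave 1.26 ± 0.34 on the log2 scale (adjusted p = 0.0532) and metestrus against estrus 1.1 ± 0.34 (0.0646). Both passed in DESeq2 (0.0139 and 0.0313). Without metestrus replicate 7 the 2 differences were 0.59 and 0.45. Diestrus against metestrus gave -0.86 ± 0.33 (0.332) and proestrus against diestrus -0.4 ± 0.35 (0.571), the latter with no overlap.

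**Figure D3:**
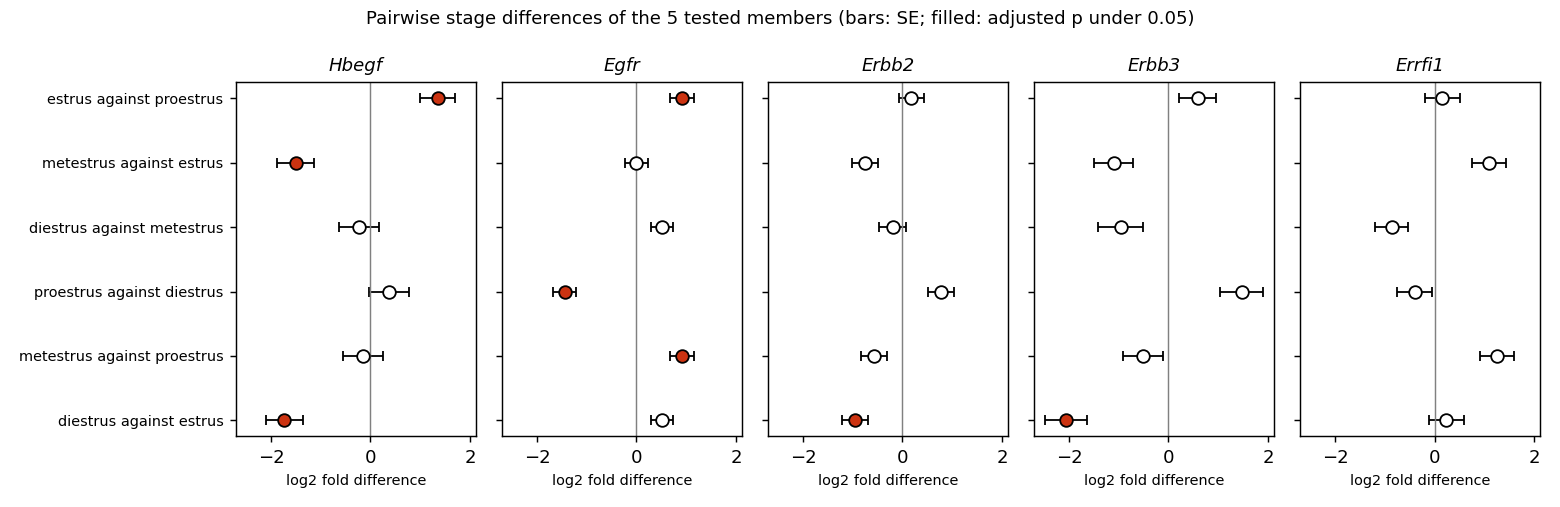
Log2 difference with its SE for the 5 tested members in each pair of stages, from the edgeR fit over 12 uteri, with filled points for an adjusted p under 0.05. Between diestrus and estrus, Hbegf (-1.73), Erbb2 (-0.95) and Erbb3 (-2.06) are filled and lie below 0, and Egfr (0.52) lies above 0 and is open.

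The start regions of Egfr, whose mean was highest in diestrus, of Erbb2, whose mean was lowest there, and of Errfi1 are printed to show the sequence that precedes these transcripts. RefSeq promoter entries (GRCm38.p6) were found for 6 of the 9 members, in 8 windows of 230 bases from 250 to 21 bases before an annotated start. Hbegf, Ereg and Erbb3 are named only. Capitals mark matches, on either strand, to GGGCGG (GC box), TGANTCA (AP-1), GGTCA and TGACC with any 3 bases between them (full estrogen response element) or TGACGTCA (cAMP response element), and overlapping matches, counted separately, run together. The Egfr window is chr11:16751953-16752182 and the Erbb2 window chr11:98412234-98412463, both on the forward strand. The Errfi1 window is chr4:150854820-150855049, also forward, the downstream of 2 annotated starts. It lies inside the GENCODE gene and covers no exon.
Egfr: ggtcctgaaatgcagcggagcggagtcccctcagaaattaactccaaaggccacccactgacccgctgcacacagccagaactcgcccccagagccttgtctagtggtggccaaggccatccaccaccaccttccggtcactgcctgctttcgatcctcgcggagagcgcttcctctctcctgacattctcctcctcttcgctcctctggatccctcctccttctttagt
Erbb2: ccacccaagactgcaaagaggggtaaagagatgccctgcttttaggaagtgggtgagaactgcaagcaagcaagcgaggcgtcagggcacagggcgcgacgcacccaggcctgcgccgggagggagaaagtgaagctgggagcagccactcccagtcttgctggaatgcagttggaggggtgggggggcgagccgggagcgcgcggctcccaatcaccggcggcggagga
Errfi1: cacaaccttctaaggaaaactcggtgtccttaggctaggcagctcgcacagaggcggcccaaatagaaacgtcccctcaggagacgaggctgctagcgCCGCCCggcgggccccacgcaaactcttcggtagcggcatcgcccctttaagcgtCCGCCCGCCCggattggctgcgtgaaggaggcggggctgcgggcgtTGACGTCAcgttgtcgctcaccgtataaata
The Errfi1 window held 3 matches to GGGCGG and 1 to TGACGTCA, while 29.8% and 1.28% of all 32851 windows held at least 1. Neither the Egfr nor the Erbb2 window held any of the 4 motifs, and the other Errfi1 window (chr4:150853546-150853775) held none. TGANTCA was in 6.34% and the full estrogen response element in 0.0578% of all windows. GC content was 59.1% for Egfr, 65.2% for Erbb2 and 62.6% for the Errfi1 window, against a median of 51.7%. A match is only a match of letters, and its absence says nothing of a factor.

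Of the 7 other members of the family that were listed (the ligands Areg, Epgn and Nrg1 to Nrg4 and the receptor Erbb4), 3 were tested. Nrg1 encodes neuregulin 1, a ligand of ERBB3 and ERBB4. It measured 43.3 ± 7.0 CPM in proestrus, 36 ± 4.24 in estrus, 30.2 ± 21.1 in metestrus and, in diestrus, 13.0 ± 10.5 (n = 3 each, SD, adjusted p = 0.151 over the stages). Its diestrus values were 15.5, 1.48 and 22.1 CPM, all below the proestrus and estrus values. Nrg2, another neuregulin, measured 2.99, 1.48 and 5.09 CPM in diestrus and 8.66, 9.72 and 14.7 CPM in estrus, with no overlap. Over the stages its adjusted p was 0.127. The log2 difference between diestrus and estrus was -1.81 ± 0.59 (adjusted p = 0.0411), and this did not pass in 7 of the 12 fits without a library (up to 0.151, without estrus replicate 5). Nrg4 means were 19.2, 16.8, 26.4 and 27.3 CPM in cycle order (adjusted p = 0.104). Erbb4 gave 10 counts over all libraries, Nrg3 6 and Epgn 2.

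The other genes of the pathway were read from 4 lists with 66 genes, of which 59 were tested and 12 (20.3%) changed over the stages, close to the 23.2% of all genes tested. Of these 12, 9 had their highest mean in estrus and 3 in proestrus. Among all 2793 genes that changed, 46.8% were highest in estrus and 23% in proestrus. The shares are set side by side without a test.

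**Figure D4:**
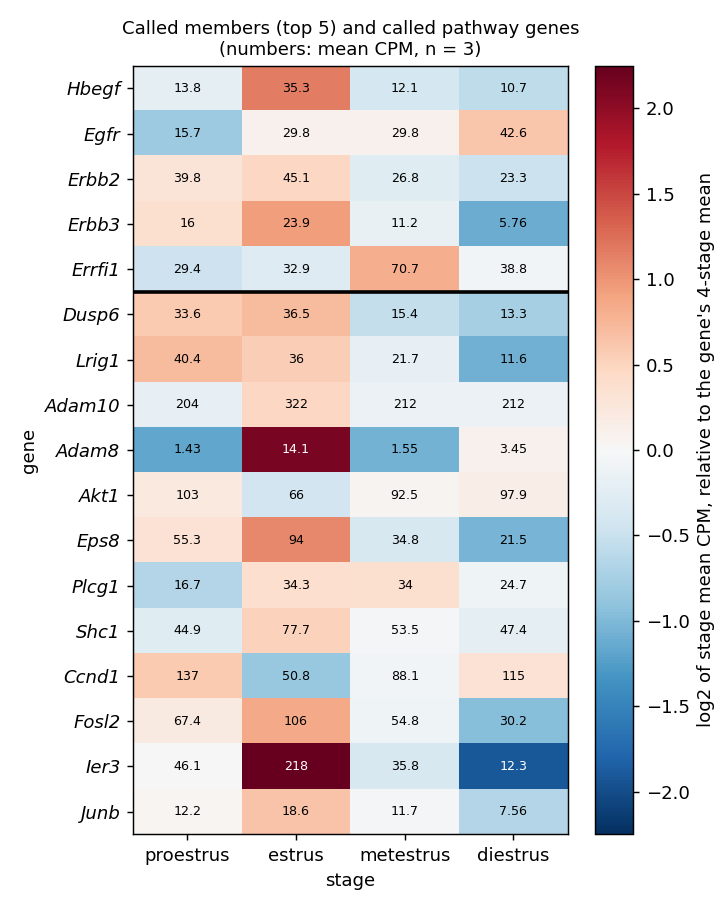
Heat map of the 5 tested members (above the line) and the 12 pathway genes that changed over the stages, in rows, by stage, in columns. Colour gives the log2 stage mean relative to the gene's mean over the 4 stages and each cell prints the mean CPM (n = 3): Hbegf reaches 35.3 in estrus and Egfr 42.6 in diestrus, while Ccnd1 and Akt1 are lowest in estrus.

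Among the 9 genes of ligand shedding, 2 changed over the stages, a share near the 23.2% of all genes tested. In estrus against proestrus 2 were higher, beside 9.67% of all genes tested (median log2 difference 0.33, against 0.02 over all genes tested). Adam8, a metalloprotease of leukocytes, measured 14.2, 14.3 and 13.7 CPM in estrus and 2.49, 4.45 and 3.4 CPM in diestrus, a log2 difference of -2.01 ± 0.34 (adjusted p = 0.00116). Its proestrus uteri held 2, 3 and 3 counts and its metestrus uteri 3, 3 and 2, at the detection limit, so no fold is given for those stages, although both differences passed. Adam10, the sheddase of betacellulin and EGF, measured 204 CPM in proestrus and rose to 322 CPM in estrus, 0.66 ± 0.14 on the log2 scale (adjusted p = 0.00606). Without estrus replicate 4 its adjusted p over the stages was 0.0689. Adam17, the sheddase of TGF-alpha and HB-EGF, was among the 7 that did not pass over the stages (adjusted p = 0.163) and is named for its role.

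Of the 21 adaptors and kinases downstream of the receptors, 4 changed over the stages, beside 23.2% of all genes tested. In estrus against proestrus 3 were higher and 2 lower (median 0.07), beside 9.67% and 7.46% of all genes tested. Eps8, an EGFR substrate that binds actin, measured 94.6, 89.8 and 97.6 CPM in estrus and 18.4, 21.8 and 24.3 CPM in diestrus, a log2 difference of -2.13 ± 0.22 (adjusted p = 3.57e-05). Shc1, the adaptor that links the receptors to GRB2 and RAS, rose from 44.9 to 77.7 CPM between proestrus and estrus (0.79 ± 0.17, adjusted p = 0.00662), and over the stages its adjusted p was 0.0802 without estrus replicate 4. Akt1, a kinase of the PI3K branch, fell from 103 to 66 CPM over the same step (-0.63 ± 0.13, adjusted p = 0.00498), and over the stages its adjusted p was 0.0544 without estrus replicate 3.

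Of 18 feedback inhibitors besides Errfi1, 15 were tested and 2 changed over the stages, Dusp6 and Lrig1, a lower share than the 23.2% of all genes tested. The other 13 did not pass. Dusp6, the phosphatase of ERK, measured 34, 36.6 and 38.9 CPM in estrus, 12.4, 17 and 16.7 CPM in metestrus and 11.5, 15.3 and 13 CPM in diestrus. Its log2 level was lower than in estrus by -1.25 ± 0.19 in metestrus (adjusted p = 0.00188) and by -1.46 ± 0.19 in diestrus (0.000192). Lrig1, a membrane protein that promotes loss of ERBB receptors, measured 41.6, 49.6 and 29.9 CPM in proestrus and 13, 14.3 and 7.36 CPM in diestrus, a log2 difference of 1.79 ± 0.34 (adjusted p = 0.00561). Neither gene's proestrus and diestrus values overlapped, and both had their lowest mean in diestrus, as Erbb2 and Erbb3 did. The list's median in diestrus against estrus was -0.06, against 0.0 over all genes tested.

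Of 18 transcripts that EGFR and ERK signalling is known to induce, 14 were tested and 4 changed over the stages, beside 23.2% of all genes tested. In diestrus against estrus 5 were lower and 1 higher, with a median log2 difference of -0.64; over all genes tested 13% were lower and 9.72% higher. Between the same stages, 7 of 9 epithelial, 3 of 7 macrophage (Cd14, Cd68 and Csf1r) and 3 of 6 smooth muscle markers (Myh11, Tagln and Actg2) were also lower in diestrus, with medians of -1.34, -0.89 and -0.69. Of 7 stromal markers 1 was lower and 0 higher (median -0.05), and of 6 uterus markers 4 were higher and 0 lower (median 1.3). Smooth muscle markers summed to 8230 to 10600 CPM in estrus and 6140 to 6450 CPM in diestrus. Macrophage markers summed to 558 to 641 CPM in estrus and 310 to 407 CPM in diestrus. The part of these cell types in the list's change was not tested. Fosl2, a subunit of AP-1, measured 93.4, 120 and 105 CPM in estrus and 37.9, 26.7 and 26 CPM in diestrus (-1.81 ± 0.18, adjusted p = 2.72e-05). Ier3, an early response gene, was also highest in estrus, at 218 CPM against 46.1 in proestrus. Ccnd1, the cyclin of the G1 phase, ran the other way. It measured 143, 132 and 138 CPM in proestrus and 59.4, 36.6 and 56.3 CPM in estrus (-1.43 ± 0.22, adjusted p = 0.00113), and was higher in diestrus than in estrus by 1.18 ± 0.22 (0.00191).

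The genes whose log2 CPM over the 12 libraries lay nearest to each tested member, by the root mean square (RMS) difference after centring, were then read off. Nearest to Hbegf were Steap2 (0.277), a metalloreductase, and Acp5 (0.331), a phosphatase, beside an RMS of 0.81 for Hbegf around its own mean. Steap2 stood at 51.2 ± 7.45 CPM in estrus and 17.9 ± 4.86 in proestrus (SD, n = 3 each). Nearest to Egfr, with an RMS of 0.553, were Islr (0.191) and the corepressor Tle1 (0.206), which rose in mean from 47.7 ± 2.13 CPM in proestrus to 110 ± 8.14 in diestrus. Nearest to Erbb2 (0.454) were the calcium channel subunit Orai1 (0.19) and Rabgap1l (0.229). Nearest to Erbb3 (0.816) were the polyamine oxidase Paox (0.251) and the myosin Myo1d (0.287), which stood at 29.7 ± 2.51 CPM in estrus and 5.6 ± 1.98 in diestrus. Nearest to Errfi1 (0.556) were the transcription factors Klf2 (0.255) and Mef2a (0.275). These are descriptions over 12 libraries and carry no test. In edgeR's F test over the stages, Orai1 (adjusted p = 0.148) and Klf2 (0.117) did not pass.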

How the data were processed

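Whole uteri were profiled by 3' TagSeq, 3 per stage, placed by the estrous stage label. Per the submitters' processing notes, FastQC, kallisto and DESeq2 were used; options, transcript set, build and strand are not given in the sources used here. Per the file headers, the authors deposited 1 table per sample with estimated counts and TPM for each of 119414 transcripts. The deposited TPM values divide by transcript length and were not used, since 3' tags do not scale with length.

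Transcripts were matched to GENCODE M21 (GRCm38), 116640 of them (97.7%), and estimated counts were summed per gene and rounded. Unmatched transcripts held 0.619% to 0.774% of a library and were left out. The 12052 genes kept by filterByExpr were scaled with TMM (factors 0.908 to 1.05) and fitted with edgeR 4.0.16 (R 4.3.3) over the 12 samples, with an F test and 6 two-sided contrasts, Benjamini-Hochberg adjustment and a threshold of 0.05. SEs of log2 differences were derived from the F statistics. Scripts were tested on simulated data. CPM uses the TMM-scaled totals, and log2 CPM a prior count of 2.

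The protocols name no molecular identifiers, and PCR copies were counted as reads. Members and lists were chosen with earlier results of these data known. The genes named are the members, the other family members, the 3 genes with the smallest p among those that changed in each other list, and the 2 genes nearest to each tested member. Adam17, Mien1 and single marker genes are named outside this rule, with their values seen. Alternatives were other scalings, filters, DESeq2 1.42.0, leaving out libraries and fitting fewer stages. The fit without the metestrus samples was chosen after seeing the data.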

Additional observations from a re-analysis of the deposited data

How the results depend on the processing

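Counts of members that changed depended on the processing where adjusted p-values were near 0.05. With a minimum mean of 50 counts, which drops Hbegf and Erbb3, the counts were 3 over the stages, 1 for estrus against proestrus, 0 for metestrus against estrus, 2 for metestrus against proestrus and 1 for diestrus against estrus. With no filter they were 2 for metestrus against estrus, 3 for proestrus against diestrus and 2 for metestrus against proestrus. DESeq2 gave 2 for each of these 3 pairs. Median-of-ratios scaling gave 2 for proestrus against diestrus, and library totals gave 2 there and 0 for metestrus against proestrus. Fits on the 6 samples of a pair gave 0 for metestrus against estrus, 3 for proestrus against diestrus, 0 for metestrus against proestrus and 4 for diestrus against estrus, the fourth being Egfr, higher in diestrus. The fit without metestrus gave 4 over the stages, 2 for proestrus against diestrus and 4 for diestrus against estrus, again with Egfr. With each library left out in turn, the counts ran from 2 to 5 over the stages, 0 to 2 for estrus against proestrus, 0 to 2 for metestrus against estrus, 1 to 2 for proestrus against diestrus, 0 to 2 for metestrus against proestrus and 2 to 4 for diestrus against estrus. No member reversed its direction in any of these fits where it had changed. Beyond fewer samples or genes, the cause was not tested.

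Estrus and diestrus share the replicate numbers 3, 4 and 5, but same-numbered samples did not deviate together (correlations -0.043, 0.013 and -0.017). On the 6 estrus and diestrus samples alone, 4 members changed without the replicate number as a block and 3 with it, since the adjusted p of Egfr was 0.0299 without the block and 0.0514 with it. Ereg, Egf, Btc and Tgfa were too low in counts to be tested.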

Other observations

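Annotated transcripts of the members gave these values, which enter no comparison. Erbb2 counts fell on 1 of its 3 transcripts, while Erbb3 had only 1 transcript to which counts could be assigned. The coding transcript of Hbegf held 90.6% of its counts. A short coding transcript of Egfr, which ends before the last exon of the long one, held 13.8% of the Egfr counts over all libraries. Its share was 16.3% in proestrus, 17.3% in estrus, 16.9% in metestrus and 8.65% in diestrus, from 2.2 to 13.4 estimated counts in a library. The 2 coding transcripts of Errfi1 share their last exon, so 3' tags cannot separate them.

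Areg, the amphiregulin ligand of EGFR, was at 0 counts in all 9 proestrus, estrus and metestrus libraries and gave 3, 20 and 3 counts in diestrus replicates 3, 4 and 5 (1.5, 9.89 and 1.7 CPM). It was below the filter and was not tested. Diestrus replicate 4, with the 20 Areg counts, also had the lowest Nrg1 value of the 12 uteri, 1.48 CPM from 3 counts.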
